A study of Mus musculus with 6 samples.

Results

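The 10 mature miRNAs described here come from 9 hairpins that overlap, or match in sequence, small nucleolar RNA (snoRNA) or small Cajal body RNA (scaRNA) genes. They were taken by name from a table of 1966 mature miRNAs, and all 10 were present in it. miRNA sequencing was done on extracellular vesicles (EVs) released by mouse colon explants, which are whole colons opened and kept in culture, here for 16 hours, and on EVs of bone marrow-derived dendritic cells (BMDCs), which are grown from marrow with GM-CSF, here for 7 days. All 6 libraries carry the strain label Rab27A fl/fl, a floxed allele of the small GTPase Rab27A that serves exosome release, and the labels name no Cre and no further treatment. The sample labels give an iodixanol density gradient, of which fraction 2 was sequenced, to the 3 colon EV preparations alone, whereas the study's Results text names the gradient for both sources, so whether the BMDC EVs passed it is not settled here. The serum of the explant medium was depleted of exosomes and the BMDCs grew in complete RPMI, so source and medium, and purification if it differed, cannot be told apart. A colon explant EV preparation mixes vesicles of many cell types, and in either preparation fewer vesicles of a type and less RNA per vesicle cannot be told apart.

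snoRNAs guide the chemical modification of other RNAs in the nucleolus. Those with a C box and a D box guide 2′-O-methylation, and those that end in an ACA box guide the change of uridine to pseudouridine. scaRNAs do the same for the RNAs of the spliceosome in Cajal bodies. Most lie in introns of other genes and are trimmed from the spliced-out intron, and short pieces of some of them are known to be bound by Argonaute and listed as miRNAs. A canonical miRNA is instead cut from a hairpin by Drosha and Dicer, which leaves a 5p and a 3p arm.

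The mature sequences are shown to tell the members apart, since the seed, bases 2 to 8 from the 5′ end (in capitals), is the part by which a miRNA pairs with its targets. They are from RefSeq (GRCm38.p6).
mmu-miR-6516-5p: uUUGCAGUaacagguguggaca
mmu-miR-1843a-5p: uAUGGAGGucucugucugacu
mmu-miR-1843b-5p: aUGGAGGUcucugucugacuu
mmu-miR-1843b-3p: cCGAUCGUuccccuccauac
mmu-miR-3068-5p: uUGGAGUUcaugcaaguucuaacc
mmu-miR-664-5p: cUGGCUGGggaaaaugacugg
mmu-miR-1839-5p: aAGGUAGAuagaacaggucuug
mmu-miR-677-5p: uUCAGUGAugauuagcuucuga
mmu-miR-1291: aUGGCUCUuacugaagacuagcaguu
mmu-miR-5121: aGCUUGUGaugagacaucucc

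The 10 seeds were all different, and each was shared with 0 other miRNAs of the table that had a RefSeq sequence. miR-1843a-5p and miR-1843b-5p were the closest pair, with a shared run of 20 bases shifted by 1 base. The whole of miR-1843b-5p also occurs in the gene of miR-1843a, so a read of that sequence cannot be given to 1 of the 2 hairpins. Aligned with a shift of 1 base, the 3p arms miR-1843a-3p and miR-1843b-3p matched over most of their length. Isolated mismatches left no shared run longer than 9 bases.

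The annotation (GENCODE vM21, GRCm38) bore out the grouping for all 10. Each mature sequence lay whole within a snoRNA or scaRNA on its own strand, which held for 22 (1.31%) of the 1675 table names with a RefSeq sequence. The hairpin overlapped that RNA by at least 50% of its length in all but Mir5121, whose overlap was 30 of 74 bases (40.5%), the rest of the hairpin running on into the intron. Over the 989 hairpins matched, 13 (1.31%) overlapped such a gene to that extent. The 9 host RNAs fell into 2 kinds. Snord33 and the RNA annotated as Mir677 had a C box (UGAUGA in the first 20 bases) and a D box (CUGA in the last 20 bases), which was so for 20.2% of the 1558 annotated snoRNA and scaRNA transcripts. The other 7 had ACA at 2 or 3 bases before the end, against 44.1% of all. Boxes were searched on the RNA strand only.

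Position within the host also split them. miR-5121, miR-677-5p and miR-1291 lay in the first 30 bases of their hosts, and the other 7 members began past the middle. The 4 hosts below show both arrangements, with the mature miRNA in capitals.
Snord33, with miR-5121 (chr7:45126864-45126947, minus strand): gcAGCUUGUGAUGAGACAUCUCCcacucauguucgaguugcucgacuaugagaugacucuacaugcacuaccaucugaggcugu
Mir677, with miR-677-5p (chr10:128085289-128085360, plus strand): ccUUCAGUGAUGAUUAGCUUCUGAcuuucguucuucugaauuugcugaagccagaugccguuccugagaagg
Snora34, with miR-1291 (chr15:98519716-98519853, minus strand): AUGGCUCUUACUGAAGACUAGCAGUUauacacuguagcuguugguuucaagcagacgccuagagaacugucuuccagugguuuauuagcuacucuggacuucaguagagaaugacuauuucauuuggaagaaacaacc
Scarna3a, with miR-1843b-5p (chr1:159340283-159340422, plus strand): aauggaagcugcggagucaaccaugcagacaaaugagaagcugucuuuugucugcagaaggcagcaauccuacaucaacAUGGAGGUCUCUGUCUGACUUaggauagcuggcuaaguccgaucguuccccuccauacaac

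miR-5121 (chr7:45126925-45126945) was bases 3 to 23 of the 84-base Snord33, a methylation guide, and held its C box at bases 7 to 12 of the miRNA. In RefSeq, Snord33 ends at 45126945 on this minus strand, so that miR-5121 starts at base 1 of the snoRNA there. The place is an intron of the coding transcripts of Rpl13a, a ribosomal protein gene that also hosts Snord32a, Snord34 and Snord35a, and an exon of its retained-intron transcripts. miR-677-5p (chr10:128085291-128085312) was bases 3 to 24 of a 72-base snoRNA in an intron of Atp5b, the beta subunit of mitochondrial ATP synthase. It held UGAUGA at bases 6 to 11. Across the 1675 sequences of the table, 12 (0.716%) held UGAUGA. miR-1291 (chr15:98519828-98519853) was bases 1 to 26 of Snora34, in an intron of Kansl2, a subunit of a histone acetyltransferase complex.

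Among the members past the middle of their hosts, miR-1843b-5p (chr1:159340362-159340382) and miR-1843b-3p (chr1:159340400-159340419) were bases 80 to 100 and 118 to 137 of Scarna3a, in an intron of the ubiquitin ligase gene Cop1. miR-1843a-5p (chr12:80391654-80391674) was bases 78 to 98 of Scarna3b, in an intron of Dcaf5. miR-3068-5p (chr12:87437724-87437747) was bases 71 to 94 of a 136-base snoRNA in an intron of Alkbh1, a nucleic acid demethylase. miR-664-5p (chr1:185242975-185242995) was bases 69 to 89 of Snora36b, in an intron of Rab3gap2. miR-1839-5p (chr7:81529919-81529940) was bases 65 to 86 of a 127-base scaRNA in an exon of the lincRNA 2900076A07Rik. miR-6516-5p (chr11:117077370-117077391) was bases 128 to 149 of the 193-base scaRNA Gm26083, in an exon of Snhg20, a snoRNA host lincRNA.

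**Figure D1:**
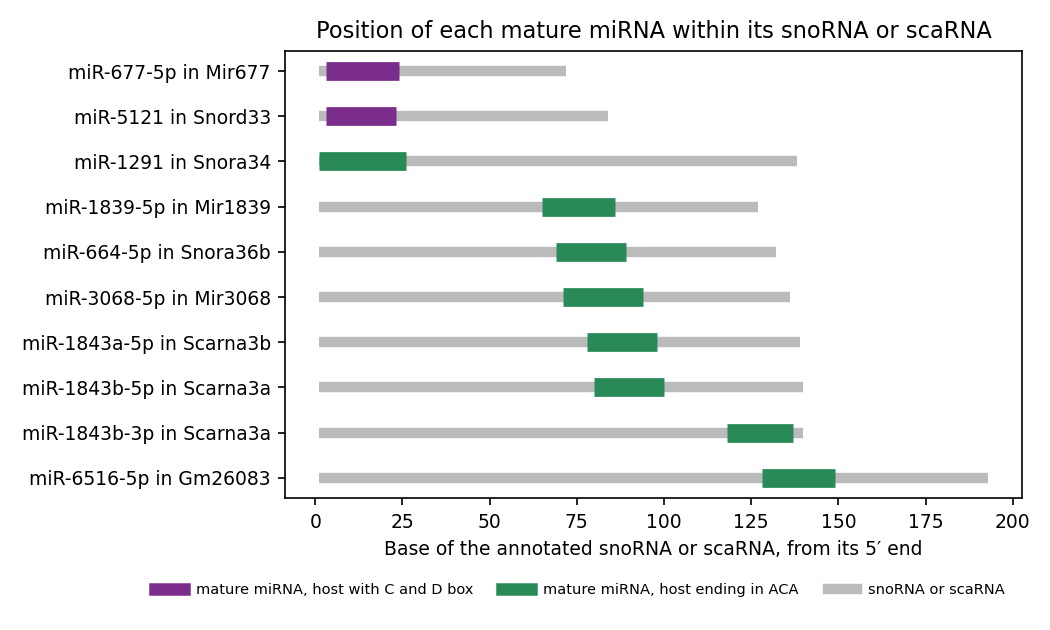
Each grey line is 1 host snoRNA or scaRNA, drawn to scale in bases from its 5′ end (x axis), and the thick segment is the mature miRNA. miR-5121 (bases 3 to 23), miR-677-5p (bases 3 to 24) and miR-1291 (bases 1 to 26) sit at the start of their hosts, and the other 7 members past the middle.

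The library totals were 173358 to 645303 counts in colon EVs and 83997 to 178454 in BMDC EVs, so that 3 counts were 4.65 to 17.3 CPM (counts scaled to the library total) in colon EVs and 16.8 to 35.7 CPM in BMDC EVs. Levels below are normalised counts, which are counts scaled by TMM to a common effective library of 191581 counts. The labels do not say that the preparations came from separate mice, so p-values measure the spread between these preparations. The libraries matched their sources in the miRNAs that mark them. The 7 epithelial markers held 20.6% to 27.2% of colon EV counts and 0.341% to 0.725% of BMDC EV counts, and the 7 haematopoietic markers held 30.7% to 32.3% of BMDC EV counts and 0.514% to 1.19% of colon EV counts, with 7 of 7 called in the direction of their source in each list. The 4 smooth muscle and mesenchyme markers held 0.118% to 0.179% of colon EV counts and 0.00591% to 0.0169% of BMDC EV counts.

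The count filter of 10 counts in 3 or more libraries was passed by all 10 members and by 220 miRNAs in all. With edgeR's quasi-likelihood test and Benjamini-Hochberg adjustment, 7 of the 10 had an adjusted p under 0.05, against 76.8% of all tested miRNAs, so the share that differed was near that of the table. By direction, 6 members were higher in colon EVs (36.4% of all tested) and 1, miR-5121, was higher in BMDC EVs (40.5% of all tested). The same 7 were the members whose libraries did not overlap between sources, against 81.8% of all tested, with 6 where colon EVs were higher (39.1% of all tested) and 1 where BMDC EVs were higher (42.7%). A log2 fold change over 2 in size together with the adjusted p was found for 5 of the 10 (54.1% of all tested), and 3 of the 10 passed with a base level, the mean over the 6 libraries, of at least 100 normalised counts (38.6%). The members' median log2 fold change (BMDC EVs over colon EVs) was −1.43, and −1.59 without miR-5121, against 0.19 over all tested. Of the 6, 4 had under 10 counts in every BMDC EV library and could be tested only through their colon EV counts. The count of 6 and the members' medians are therefore a description.

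**Figure D2:**
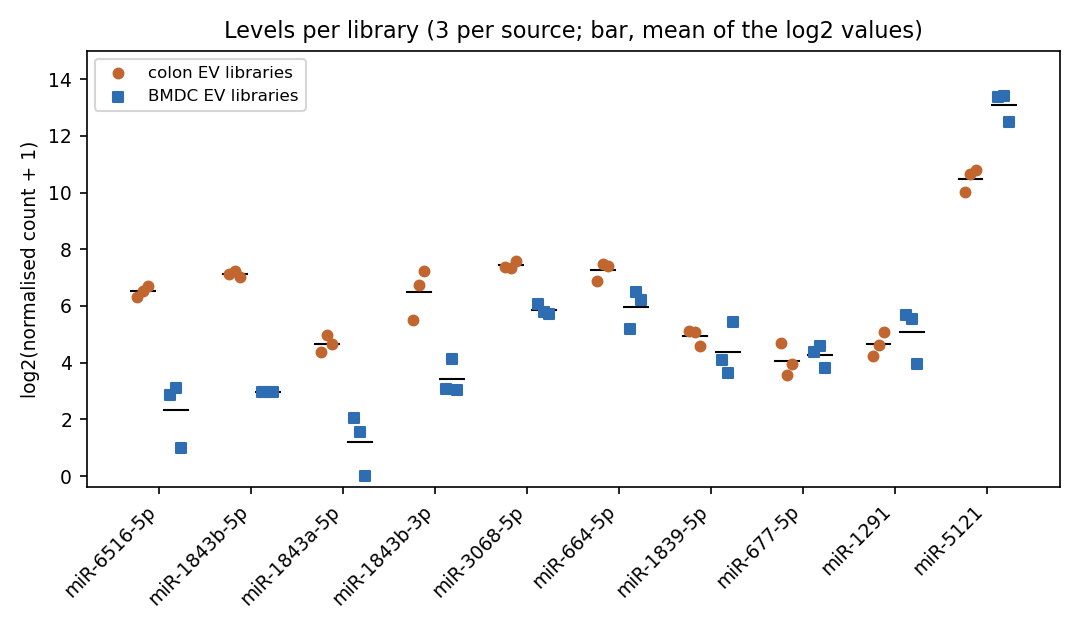
The y axis is the level as log2(normalised count + 1), with 1 point per library (3 colon EV and 3 BMDC EV libraries per miRNA) and a bar at the mean. miR-5121 is the most abundant member in both sources and the BMDC EV points lie above the colon EV points, the 6 members on the left have all colon EV points above all BMDC EV points, and the remaining 3 overlap.

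miR-5121 was the most abundant of the 10 in every library. Its counts were 2713.5, 1682 and 1459 in colon EVs and 8489.3, 5617.1 and 5960.5 in BMDC EVs, in the order of the replicates. As normalised counts these were 1032, 1601 and 1755 in colon EVs and 10531, 10777 and 5749 in BMDC EVs. All BMDC EV libraries were above all colon EV libraries, and BMDC EV replicate 3 was the lowest of its source. The log2 fold change was 2.63 (SE 0.287, adjusted p = 1.65e-07, n = 3 per source, edgeR), a 6.17-fold higher level, with an interval of 2.02 to 3.23. Among the 220 tested miRNAs it ranked 28 in colon EVs and 6 in BMDC EVs by mean level. Its base level was 5241 normalised counts, against 114 and 110.5 for miR-3068-5p and miR-664-5p and under 100 for each of the other 7.

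The 6 members higher in colon EVs were all from ACA-type hosts. miR-1839-5p, from a scaRNA, and miR-1291 also had ACA-type hosts and did not pass the threshold. The 4 with the widest differences were from scaRNAs. These 4 had under 10 counts in every BMDC EV library. Of them, 3 lie in Scarna3a or Scarna3b, which share the miR-1843b-5p sequence. miR-6516-5p, from the scaRNA in Snhg20, had 207, 96.5 and 85 counts in colon EVs and 5, 4 and 1 in BMDC EVs. Its normalised counts were 91.0 ± 11.8 and 4.95 ± 3.53 (SD, n = 3), with no overlap. The log2 fold change was −4.33 (SE 0.533, adjusted p = 7.09e-07, edgeR). The BMDC EV values were at a few counts, so this fold is coarse.

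miR-1843b-5p, from Scarna3a and not separable from the same sequence in Scarna3b, had 360.5, 156 and 106.5 counts in colon EVs and 5.5, 3.5 and 7 in BMDC EVs. After scaling, the levels were 138 ± 10.2 normalised counts in colon EVs and 6.76 ± 0.0548 in BMDC EVs (SD, n = 3). The BMDC EV values rest on a few counts each, so their small SD is no measure of precision and the fold is coarse. The log2 fold change was −4.23 (SE 0.397, adjusted p = 2.08e-08, edgeR). miR-1843a-5p, its near copy from Scarna3b, was lower throughout, with 52.3, 32.3 and 20 counts in colon EVs and 2.5, 1 and 0 in BMDC EVs. It fell by 4.13 on the log2 scale in the fit (SE 0.727, adjusted p = 4.77e-05, edgeR). With 104 against 3 rounded counts, the ratio of colon EVs to BMDC EVs was 18.2 with a counting interval of 6.05 to 89.6. These 2 levels depend on how shared reads were divided.

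miR-1843b-3p, the other arm at Scarna3a, had 116.5, 112 and 125 counts in colon EVs and 6, 8.5 and 7.5 in BMDC EVs. Its colon EV counts did not follow the library totals. The normalised counts there spread from 44.3 through 106.6 to 150.4, a wider spread than that of the 5p arm. All 3 stood above the BMDC EV libraries, at 10.3 ± 5.18 (SD, n = 3), and the log2 fold change was −3.35 (SE 0.523, adjusted p = 1.21e-05, edgeR).

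The snoRNA-derived miR-3068-5p and miR-664-5p differed less and were well counted in both sources. miR-3068-5p had 430, 169 and 159 counts in colon EVs and 53, 28 and 53 in BMDC EVs, or 172 ± 16.8 and 56.9 ± 7.80 normalised counts (SD, n = 3). Its log2 fold change was −1.59 (SE 0.290, adjusted p = 6.94e-05, edgeR). miR-664-5p had 310, 188.5 and 140 counts in colon EVs and 28.5, 46.5 and 75.3 in BMDC EVs, or 155 ± 32.8 and 65.7 ± 27.6 normalised counts. BMDC EV replicate 1 was its lowest library at 35.4, and the lowest colon EV library, at 118, was above the highest BMDC EV library, at 89.2. Its log2 fold change was −1.26 (SE 0.346, adjusted p = 0.00277, edgeR).

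The other 3 members, miR-1839-5p, miR-677-5p and miR-1291, had no difference past the threshold, and their libraries overlapped between sources. miR-1839-5p, from a scaRNA, had 33.7, 32.8 and 22.9 normalised counts in colon EVs and 16.1, 11.5 and 41.8 in BMDC EVs. BMDC EV replicate 3 was above all colon EV libraries and the other 2 BMDC EV libraries were below them. The log2 fold change was −0.31 with an interval of −1.30 to 0.68 (adjusted p = 0.551, edgeR), and its sign turned with scaling by library size alone. Without BMDC EV replicate 3 it was −1.12 (adjusted p = 0.0418, edgeR).

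miR-1291, the 5′ end of Snora34, had 17.9, 23.8 and 32.5 normalised counts in colon EVs and 50.9, 46.0 and 14.5 in BMDC EVs. Here BMDC EV replicate 3 was the lowest of all 6 libraries and the other 2 BMDC EV libraries were the highest. The log2 fold change was 0.59 with an interval of −0.43 to 1.6 (adjusted p = 0.263, edgeR), and 0.97 (adjusted p = 0.0425) without that library, which then made 2 members called higher in BMDC EVs. miR-677-5p, the other C/D-type member, had 24.5, 10.9 and 14.4 normalised counts in colon EVs and 19.8, 23.0 and 13.02 in BMDC EVs, all from 11.5 to 64.5 counts. Its log2 fold change of 0.08 had an interval of −0.93 to 1.08 (adjusted p = 0.899, edgeR), and its sign turned with DESeq2's size factors.

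**Figure D3:**
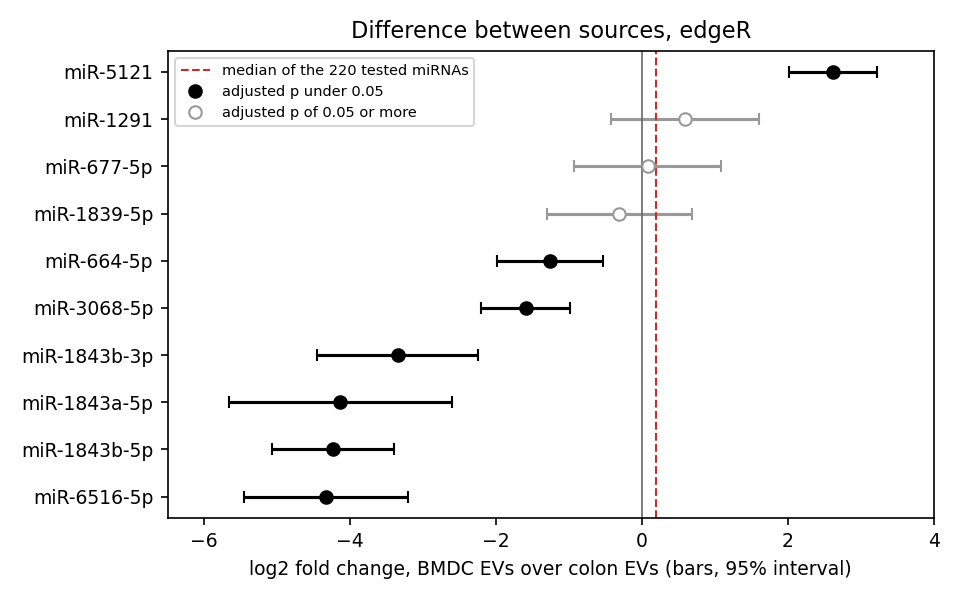
The x axis is the log2 fold change of BMDC EVs over colon EVs from edgeR, with 95% intervals as bars, for the 10 members. Filled points have an adjusted p under 0.05, and the dashed line is the median of all 220 tested miRNAs (0.19). miR-5121 lies at 2.63, miR-1291, miR-677-5p and miR-1839-5p have intervals across 0, and the other 6 lie from −4.33 to −1.26.

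Set against the rest, miR-5121 and the sum of the other 9 members differed between the sources in opposite directions. miR-5121 took 0.420%, 0.723% and 0.842% of the counts in colon EVs and 6.69%, 6.69% and 3.34% in BMDC EVs. The 95% exact binomial interval of the lowest BMDC EV share was 3.26% to 3.42% and that of the highest colon EV share was 0.799% to 0.886%, which cover counting error only. The other 9 summed to 0.338% ± 0.0716 in colon EVs and 0.138% ± 0.0193 in BMDC EVs (SD, n = 3). For each count of the other 9 together there were 1.62, 2.04 and 2.10 counts of miR-5121 in colon EVs and 49.8, 42.1 and 27.6 in BMDC EVs. miR-5121 thus made up 65.6% ± 3.26 of the members' counts in colon EVs and 97.4% ± 0.797 in BMDC EVs. These within-library ratios do not depend on the scaling between libraries. For 3 libraries against 3 an exact permutation test cannot go below a p of 0.1, and no p is given for the ratio.

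The ratio of miR-5121 to each of the other 9 members was higher in all BMDC EV libraries than in any colon EV library, as was its ratio to 65.3% of the other tested miRNAs. miR-1843a-5p had 0 counts in BMDC EV replicate 3, so the ratio to it has no finite value there and was taken as higher. For the 4 members with under 10 counts in every BMDC EV library the BMDC EV ratios are coarse. A ratio can part the sources through miR-5121 alone, as for the 3 members that did not pass the threshold. The ratio of miR-5121 to miR-1291 was 54.0 to 67.3 in colon EVs and 207 to 397 in BMDC EVs. Its ratio to miR-677-5p, the other C-box fragment, was 42.1 to 146 and 442 to 531. Its ratio to miR-1839-5p was 30.6 to 76.8 and 138 to 936. For miR-1843b-5p it was 7.53 to 13.7 in colon EVs and 852 to 1605 in BMDC EVs.

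**Figure D4:**
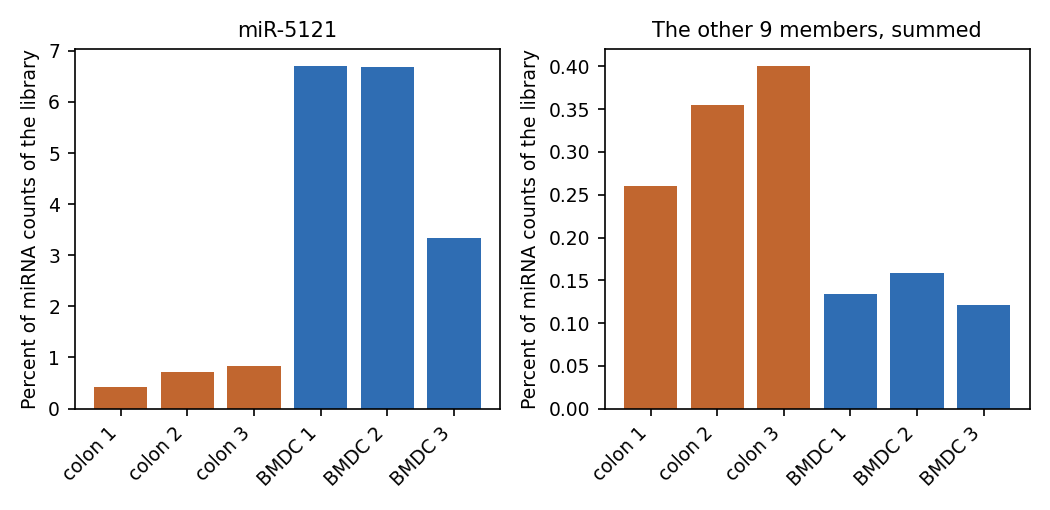
Each bar is the percentage of a library's miRNA counts, for miR-5121 on the left and for the other 9 members summed on the right, with separate y axes that both start at 0. miR-5121 is higher in the 3 BMDC EV libraries (3.34% to 6.69%) than in the 3 colon EV libraries (0.420% to 0.842%), and the sum of the other 9 is lower in BMDC EVs.

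The arms of the hairpins were unequal in most cases, on few BMDC EV counts. Pooling the 3 libraries of a source, the 5p arm held 90.9% of the miR-6516 counts in colon EVs and 83.3% in BMDC EVs. That BMDC EV share came from 10 counts of the 5p and 2 of the 3p arm, with 1 of each in BMDC EV replicate 3. It held 95.05% and 91.5% for miR-3068, 96.8% and 92.6% for miR-664, and 78.0% and 81.0% for miR-677. For miR-677, colon EV replicate 1 gave 64.5 of the 88 colon EV counts of the 5p arm, and replicate 2 had 11.5 counts of the 5p and 11.25 of the 3p arm, so no arm led there. miR-1839-3p had 1 count in all. miR-1843a leaned to its 3p arm, with 31.0% in the 5p arm in colon EVs and 13.5% in BMDC EVs, and miR-1843b was mixed, at 63.8% and 42.1%. miR-5121 and miR-1291 are listed with a single mature form.

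Both arms were tested for miR-1843a and miR-1843b alone, among 38 such hairpins, of which 13.2% changed arm usage between sources (diffSpliceDGE in edgeR). The log2 ratio of 5p to 3p counts, with 0.5 added to each, was −1.25 ± 0.743 in colon EVs and −2.14 ± 1.26 in BMDC EVs for miR-1843a (SD, n = 3). For miR-1843b it was 0.62 ± 0.937 and −0.46 ± 0.615. The adjusted p was 0.973 (unadjusted 0.513) for miR-1843a and 0.848 (unadjusted 0.398) for miR-1843b (edgeR), and both pairs of sources overlapped. The BMDC EV libraries held 16 counts of miR-1843b-5p and 22 of miR-1843b-3p in all, and the smallest shift that such counts could show was not tested. Of the hairpins that were not tested, miR-3068 had all colon EV ratios above all BMDC EV ratios only with the 0.5 added. The lowest colon EV value was then 3.99 and the highest BMDC EV value 3.93, and without the 0.5 these libraries change order. Its 3p arm had 12.5 BMDC EV counts in all.

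**Figure D5:**
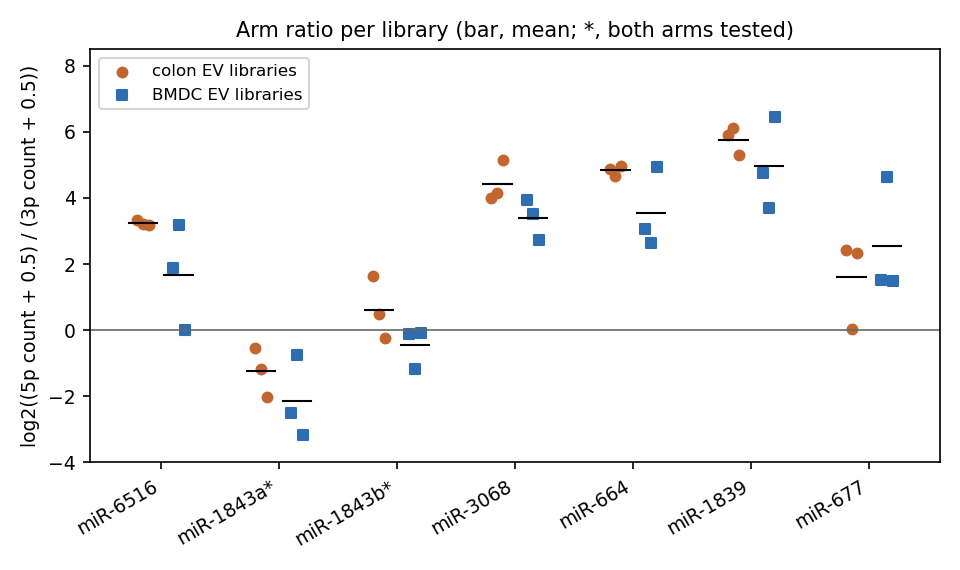
The y axis is log2((5p count + 0.5) / (3p count + 0.5)) per library, with a bar at the mean of the 3 libraries of a source, for the 7 hairpins with 2 listed arms. miR-1843a lies below 0 and miR-1843b around 0, and the other 5 at or above 0. Apart from miR-3068, whose sources part only with the 0.5 added, the sources overlap.

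The wider list of 13 other miRNAs at such genes, among them the second arms of these hairpins, was nearly empty. Of the 13, 2 passed the count filter and both were higher in colon EVs (36.4% of all tested). 1 of them, miR-1843a-3p, is the other arm of a member hairpin. miR-1843a-3p had 66.2 ± 35.4 normalised counts in colon EVs and 9.39 ± 9.60 in BMDC EVs (SD, n = 3), a log2 fold change of −2.77 (SE 0.606, adjusted p = 4.20e-04, edgeR). miR-3535 had 859 ± 92.2 and 364 ± 110, a log2 fold change of −1.24 (SE 0.242, adjusted p = 1.42e-04). miR-3535 (chr1:86352062-86352087, minus strand) is a counterpart of miR-5121, since it is bases 1 to 26 of Gm24148, an 80-base snoRNA with C and D box. The 3 C-box fragments are set below one another with UGAUGA in capitals.
mmu-miR-5121: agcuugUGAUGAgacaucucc
mmu-miR-677-5p: uucagUGAUGAuuagcuucuga
mmu-miR-3535: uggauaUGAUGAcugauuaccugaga

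All 3 lie at the 5′ end of a C/D-type snoRNA, and of these miR-5121 was higher in BMDC EVs, miR-3535 was higher in colon EVs and miR-677-5p did not pass the threshold. There were 1.36, 1.70 and 2.00 counts of miR-5121 per count of miR-3535 in colon EVs, and 22.9, 27.7 and 23.7 in BMDC EVs. BMDC EV replicate 3, the lowest for miR-5121, was in the range of the other 2 on this ratio.

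The 5 tested miRNAs whose profile over the 6 libraries was nearest to that of miR-5121, by Euclidean distance of centred log2 levels, were miR-122-5p (0.623), miR-501-3p (0.682), miR-1981-5p (0.834), miR-1198-5p (0.848) and miR-486b-5p (0.877). miR-1981-5p was the most abundant of these, at 59.2 normalised counts in colon EVs and 367 in BMDC EVs, against 1463 and 9019 for miR-5121. miR-122-5p, a liver miRNA also found in plasma, belongs to the red cell and plasma list. The 3 miRNAs of that list summed to 0.00883% to 0.0190% of colon EV counts and 0.0628% to 0.0875% of BMDC EV counts, 1 of the 3 being at 0 in all colon EV libraries, and their part in the result was not tested. The part of the epithelial and haematopoietic vesicles in the members' differences was not tested.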

How the data were processed

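Estimated counts per mature miRNA were deposited by the authors, 1 column per library, not normalised and not always whole. Fractions occurred in 1 to 4 of the 6 libraries for 8 of the members. The submitters' processing notes name STAR 2.7.6a, featureCounts 1.6.3, DESeq2 1.30.1 and GRCm38 (mm10), without roles. The handling of multi-mapping reads and of molecular identifiers is not given in the sources used here, so reads are not taken as independent molecules. The way reads were given to a miRNA rather than to the snoRNA around it is likewise not given.

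Groups came from the sample labels, and 0 columns were unmatched. In R 4.3.3, counts were rounded and compared with edgeR 4.0.16 (quasi-likelihood, TMM, no block) on 220 miRNAs, those reaching 10 counts in 3 or more libraries. Standard errors, intervals at 95% and Benjamini-Hochberg p-values are from that fit. Arm usage was tested with diffSpliceDGE, combining both arms by Simes' method. Tested on simulated data, 61 of 61 changed miRNAs were recovered with 1 of 147 unchanged ones called. Positions and sequences were taken from GENCODE vM21 and RefSeq, both GRCm38 and 1-based, and 1675 of 1966 names matched a RefSeq sequence. Same-source libraries were compared before averaging and none was a duplicate.

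The members and lists were chosen with earlier results of these data known. The miRNAs named are the members, the other arms of their hairpins, the tested miRNAs of both lists and the 5 nearest to miR-5121. Alternatives were DESeq2 1.42.0, limma 3.58.1 with voom, other scalings and filters, counts not rounded, robust dispersion, the replicate block and leaving out each library. The qPCR and animal experiments were not analysed here. Plots were made in Python 3.11.15 with matplotlib 3.10.9.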

Additional observations from a re-analysis of the deposited data

How the results depend on the processing

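The 7 members past the threshold kept their direction and stayed past it under all 17 alternatives. The log2 fold change of miR-5121 ranged from 2.16 to 3.08, and the adjusted p of miR-664-5p, the least firm of them, reached 0.0475. The 3 other members sat near 0. miR-677-5p turned to −0.021 with DESeq2's size factors, −0.47 without a count filter, −0.13 with edgeR's own filter and −0.032 with 10 counts in 2 libraries, and leaving out each library gave −0.12 to 0.51, below 0 for 3 of them. miR-1839-5p turned to 0.14 with library size alone, and leaving out each library gave −1.12 to −0.039. miR-1291 ranged from 0.11 to 1.05 over all alternatives and from 0.24 to 0.97 with a library left out. Members called higher in BMDC EVs were 1 to 2 and those higher in colon EVs 6 to 7, the larger counts both without BMDC EV replicate 3. Scaling moved the median of all tested miRNAs from 0.06 (DESeq2's size factors) to 0.64 (library size alone), and relative to that median miR-5121 stayed within 2.41 to 2.45 and miR-677-5p within −0.11 to −0.06. Summed without the 10 most abundant miRNAs of each source, by construction a smaller total, miR-5121 was 1.95% in colon EVs and 15.2% in BMDC EVs and the other 9 were 0.997% and 0.381%. With 5 counts in 3 libraries as the minimum for both arms, 6 of these hairpins were tested for arm usage among 62, with unadjusted p from 0.160 to 0.816 (edgeR). Replicate numbers are shared between the sources, but same-numbered libraries did not deviate together (r of −0.145, −0.0596 and −0.133), and the replicate block gave 86 and 78 miRNAs called higher in BMDC EVs and colon EVs, with no member's call changed. Depth limits the 4 members with under 10 counts in each BMDC EV library.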

Other observations

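The 3p arms of miR-1843a and miR-1843b had nearly the same count in each colon EV library, whatever its depth. The colon EV totals differed 3.72-fold between the largest and the smallest library, while the counts of miR-1843a-3p were 76, 74 and 82.5 and those of miR-1843b-3p were 116.5, 112 and 125, a range of 1.11-fold and 1.12-fold. The counts of miR-1843b-5p, from the same scaRNA, ranged 3.38-fold. The ratio of miR-1843b-3p to miR-1843a-3p was 1.53, 1.51 and 1.52 in the 3 colon EV libraries, and 0.364, 4.25 and 1.88 on few counts in BMDC EVs. Once aligned, the sequences match over most of their length, with isolated mismatches. Whether reads were shared between them was not tested.

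The list of miRNAs known to skip Drosha holds mirtrons and transcription start miRNAs. Of its 11 arms 6 were tested, 4 higher in BMDC EVs (40.5% of all tested), 1 higher in colon EVs and 1 not past the threshold (edgeR), with a median log2 fold change of 3.09 against 0.19 over all tested. Of the 4, 3 had under 10 counts in every colon EV library and were tested only through their BMDC EV counts, so the count and the median are a description. miR-877-5p, from a short intron that forms the hairpin itself, had 69.8 ± 16.8 normalised counts in BMDC EVs and 1.65 ± 1.95 in colon EVs (SD, n = 3). miR-877-3p had 26.9 and 2.92, miR-1981-5p 367 and 59.2, and miR-702-3p 22.6 and 0.761. The colon EV value of miR-702-3p rests on 3 counts in all. miR-320-3p was the 1 higher in colon EVs, at 210 ± 49.1 against 88.8 ± 2.94, and miR-484 had an adjusted p of 0.093 (edgeR).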
